A study of Mus musculus with 4 samples.

Results

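The 10 genes Cd68, Csf1r, Aif1, C1qa, C1qb, C1qc, Mrc1, Lyz2, Tyrobp and Fcer1g mark macrophages, and their RNA was followed in lenses of newborn mice with and without Hsf4. They were found on the arrays as every probe set whose platform annotation names exactly 1 of them, which gave 14 probe sets of 45101 and all 10 genes of 18193 named ones. The comparison asks whether RNA of these genes differs when heat shock transcription factor 4 is absent. Whether that RNA came from macrophages around the lens or from other tissue in the dissection, such as neural retina, was not tested. Both groups were lenses dissected at postnatal day 0.5 from mice labelled as males of the 129S3 background. The wild-type group and the HSF4 knockout group had 2 arrays each, called wild type 1 and 2 and knockout 1 and 2 below. The second group is called HSF4-/- or HSF4 knockout, and the labels name no allele. They do not say how many lenses or animals a sample pooled, or that samples came from separate animals, so p-values measure only how far these particular samples scatter, and that scatter may be technical.

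In the developing mouse eye a coat of capillaries, the tunica vasculosa lentis, surrounds the lens and regresses after birth. Macrophages of this coat and of the vitreous take part in the removal of its endothelial cells and engulf the debris. They depend on the receptor Csf1r, tag and take up dying material with the help of complement C1q and scavenger receptors, and pass on signals from many surface receptors through the adaptors Tyrobp and Fcer1g.

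Values are normalized intensities, obtained by giving the 4 arrays the same distribution, since the deposited medians differed. They ran from 6.58 on knockout 2, the dimmest array, to 21.4 on wild type 1. Low values on knockout 2 thus rest on little deposited signal, such as 4.48 for Cd68 and 0.413 for Aif1. A change is the difference of the group means of log2(intensity + 16), positive where the knockout was higher, and the offset understates the change of dim genes. Tests are limma's moderated tests over 11595 genes with Benjamini-Hochberg adjustment and a threshold of 0.05. Each gene takes the values of its brightest probe set on average, and it was tested where that average reached an intensity of about 13. Cryaa, the alpha-A crystallin of the lens, measured between 8512 and 9184 on the 4 arrays. Other lens markers were less even. Foxe3, a transcription factor of the lens epithelium, measured 29.9 to 92.3, and Bfsp2, a beaded filament protein, measured 2907 on knockout 2 and 60.1 to 268 elsewhere. Bfsp1, its partner, and Dnase2b, the nuclease of fibre cells, were lower in the knockout (log2 -1.06 and -1.25) without passing (adjusted p = 0.434 and 1.00). The labels could not be checked by the targeted gene, since the probe set for Hsf4 measured 505 and 138 in wild type and 1212 and 413 in the knockout, and where it lies relative to the deleted part is not stated in the labels. Y-linked RNA was found on every array, as the label of male sex requires, but Xist was bright on those of number 1. Eif2s3y, on the Y chromosome, measured 60.4 and 208 in wild type and 101 and 161 in the knockout. It was lowest on wild type 1, as were the brightest probe sets of the Y-linked genes Kdm5d (22.2 there) and Uty (9.42). Xist, the RNA of the inactive X chromosome, was also present, and its brightest probe set measured 605 on wild type 1 and 260 on knockout 1, against 58.0 on wild type 2 and 9.01 on knockout 2. Arrays of number 1 and number 2 also differed in a ribosomal RNA control of the 5' region, at 1.52 and 14.3 on number 1 and 6898 and 7309 on number 2.

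No macrophage gene passed the test. Of the 9 tested members, 0 passed the adjusted threshold in limma and 0 had an unadjusted p under 0.05. Over all tested genes the shares were 0.0345% and 2.35%, so neither count sets 9 genes apart from the rest. Their log2 changes lay between -0.20 for Cd68 and 0.30 for Csf1r, with a median of 0.00, against -0.01 over all genes tested. The 95% intervals reached from -0.97 at the lowest to 1.06 at the highest bound. These bounds hold for intensity + 16 and not for the level itself, so for dim genes they cover larger changes of level than they show. With an offset of 1 the SE of Cd68 was 0.66 instead of 0.35, and that of Fcer1g 0.49 instead of 0.35. In RNA of whole dissected tissue, fewer cells of a type and less RNA per cell cannot be told apart.

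**Figure D1:**
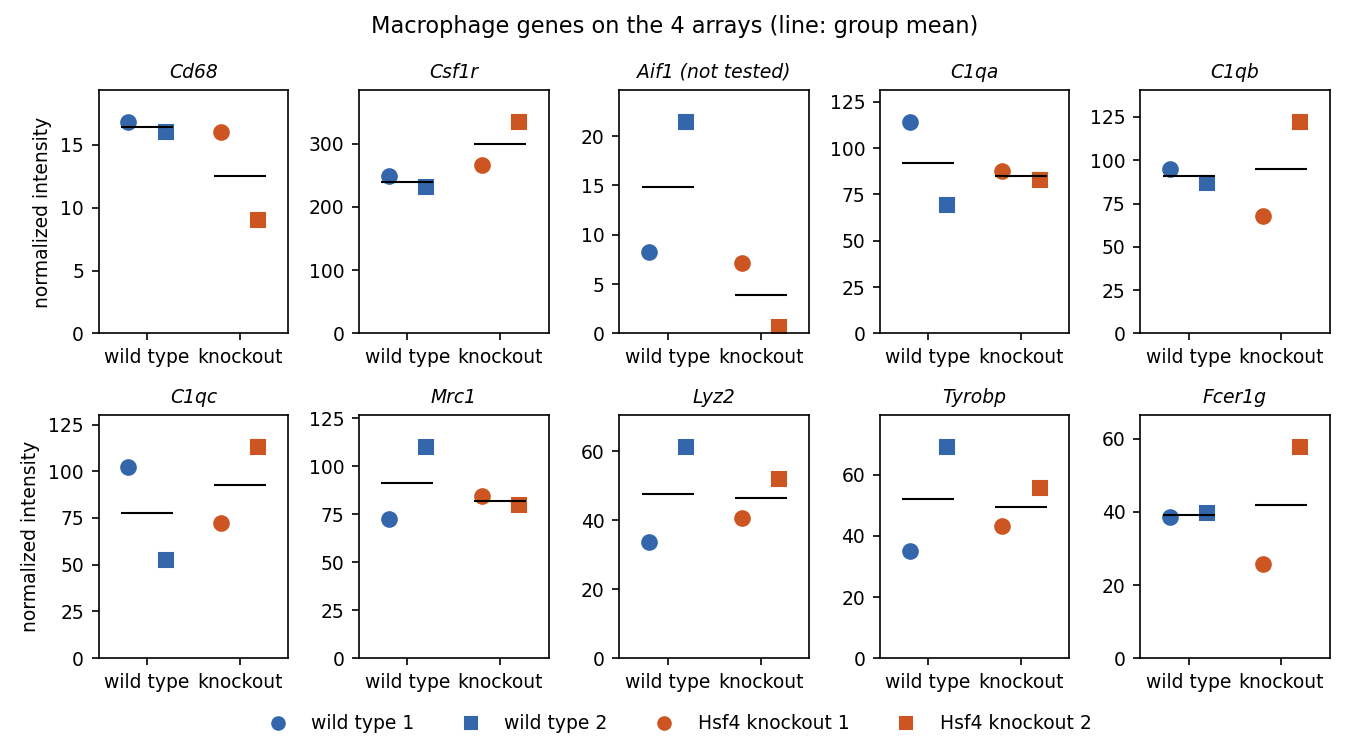
Normalized intensity (linear, from 0) of the 10 macrophage genes on each array, by genotype, with circles for number 1, squares for number 2 and a line at each group mean. The groups overlap for 7 of the 9 tested genes, and for 8467 of all 11595 genes tested. Aif1, drawn as not tested, lay below the filter.

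Csf1r, the receptor tyrosine kinase for the growth factors CSF1 and IL34, measured 249 and 231 in wild type and 267 and 334 in the knockout. The knockout arrays were both above the wild-type arrays, with means of 240 ± 12.9 and 300 ± 47.3 (SD, n = 2). The log2 change was 0.30 (SE 0.29, 95% interval -0.35 to 0.95, adjusted p = 1.00). Among all tested genes, 12.7% were higher in the knockout without overlap, and 1 of the 9 macrophage genes was. Most of the Csf1r difference came from number 2, with 0.50 there and 0.09 within number 1. The other Csf1r probe sets did not separate the groups. One measured 73.2 and 59.5 in wild type and 72.6 and 86.1 in the knockout (log2 0.21, interval -0.47 to 0.90), and the other 51.6 and 53.7 against 53.8 and 47.6 (log2 -0.04, interval -0.71 to 0.63).

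The C1q genes encode the A, B and C chains that assemble into the recognition part of the classical complement pathway, and they are neighbours in the mouse genome (RefSeq, GRCm38.p6). C1qa measured 114 and 69.3 in wild type and 87.5 and 82.7 in the knockout, so the knockout arrays lay between the wild-type ones (log2 -0.06, SE 0.32, interval -0.78 to 0.66). C1qb measured 94.7 and 86.9 in wild type and 67.9 and 122 in the knockout, so here the wild-type arrays lay between the knockout ones (log2 0.01, SE 0.33, interval -0.74 to 0.76). C1qc measured 102 and 52.7 in wild type and 72.2 and 113 in the knockout, with groups that overlapped (log2 0.24, SE 0.36, interval -0.57 to 1.06). All 3 genes had the same order of genotypes within a number. They were lower in the knockout within number 1, by -0.33 for C1qa, -0.40 for C1qb and -0.42 for C1qc, and higher within number 2, by 0.21, 0.42 and 0.91. Within genotype, the wild-type arrays were 0.61 apart for C1qa and 0.78 for C1qc on the log2 scale.

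C1qb had 2 further probe sets, both of the type marked as open to cross-hybridization. The first measured 27.7 and 12.9 in wild type and 27.5 and 43.1 in the knockout (log2 0.51, interval -0.28 to 1.30). The second lay below the filter and measured 16.6, 16.1, 14.5 and 2.70 on wild type 1, wild type 2, knockout 1 and knockout 2. The 3 probe sets of C1qb thus differed in where knockout 2 stood, which was the highest array in 2 of them and the lowest in the third. Over all 14 probe sets of the macrophage genes, 12 were above the filter and 0 passed in limma, with 0 at an unadjusted p under 0.05, against 0.0178% and 2.33% of the 22519 probe sets tested.

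The stretches upstream of C1qb, C1qc and Mrc1 are shown for the letters searched for that bear on this comparison. C1qb and C1qc hold letters of the heat shock element bound by HSF proteins, and Mrc1 holds none. Each of these stretches holds the core of the site of PU.1, the macrophage transcription factor encoded by Spi1. Cd68 and Aif1 hold that core too and are not shown. Each run gives the 250 bases before the RefSeq start site (GRCm38.p6), 5′ to 3′ on the gene's strand, with matches in capitals. C1qb lies at chr4:136886201-136886450 (minus strand), C1qc at chr4:136892915-136893164 (minus strand) and Mrc1 at chr2:14229164-14229413 (plus strand).
C1qb: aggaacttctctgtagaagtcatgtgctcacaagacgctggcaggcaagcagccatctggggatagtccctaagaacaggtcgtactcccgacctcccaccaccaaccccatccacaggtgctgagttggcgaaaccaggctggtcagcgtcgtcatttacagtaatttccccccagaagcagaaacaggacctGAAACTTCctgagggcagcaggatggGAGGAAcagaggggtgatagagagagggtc
C1qc: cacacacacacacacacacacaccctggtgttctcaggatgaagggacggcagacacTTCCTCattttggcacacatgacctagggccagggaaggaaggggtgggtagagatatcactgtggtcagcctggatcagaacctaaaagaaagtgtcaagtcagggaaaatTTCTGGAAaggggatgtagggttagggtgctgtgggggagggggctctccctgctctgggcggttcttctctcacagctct
Mrc1: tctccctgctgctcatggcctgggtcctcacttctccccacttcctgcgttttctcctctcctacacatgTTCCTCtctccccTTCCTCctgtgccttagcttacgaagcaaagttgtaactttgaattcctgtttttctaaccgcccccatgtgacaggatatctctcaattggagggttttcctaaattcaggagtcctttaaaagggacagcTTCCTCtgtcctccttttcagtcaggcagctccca

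The motifs were GAGGAA, read on both strands (as TTCCTC on the other), and the palindromes GAANNTTC and TTCNNGAA. Windows ran from 250 bases before to 50 bases after the start site, and no matches overlapped. Positions give the first base of a match, counted back from the start site. C1qb held GAANNTTC at -56 and again past the start site at 33, and GAGGAA at -30. C1qc held TTCNNGAA at -81 and TTCCTC at -193, and Mrc1 held TTCCTC at -180, -167 and -35. Of all 32851 promoter windows in the table, 28.3% held GAGGAA on either strand, 7.86% held GAANNTTC and 8.52% held TTCNNGAA. Cd68 and Aif1 also held GAGGAA, with letters on both strands in Cd68, and no window of Lyz2 or Fcer1g held any of the 3 motifs. Only 7 of the 10 genes had a window here, under the 80% needed, so a comparison of the group's share with all promoters was void. These matches are letters in a window and not measured binding.

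Cd68, a glycoprotein of macrophage lysosomes, and Mrc1, the mannose receptor CD206, take part in uptake and breakdown. Mrc1 measured 72.4 and 110 in wild type and 84.5 and 79.7 in the knockout. The knockout arrays lay between the wild-type arrays (log2 -0.10, SE 0.31, interval -0.80 to 0.60, adjusted p = 1.00). Cd68 was dim, at 16.8 and 16.0 in wild type and 16.0 and 9.0 in the knockout. Knockout 2 alone was low, and knockout 1 equalled wild type 2 to 3 digits while lying just under it (log2 -0.20, SE 0.35, interval -0.97 to 0.58). Cd68 was thus the 1 tested member lower without overlap, where 14.3% of all tested genes were. Aif1, the actin-binding protein IBA1, was the 1 gene below the filter. It measured 8.21 and 21.4 in wild type and 7.12 and 0.678 in the knockout, and at these intensities it received no test.

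Lyz2, lysozyme M, which degrades bacterial cell walls and is made by macrophages and neutrophils, measured 33.7 and 61.3 in wild type and 40.8 and 51.9 in the knockout. Tyrobp, the adaptor DAP12, measured 35.0 and 69.1 in wild type and 43.1 and 55.6 in the knockout. For both genes wild type 1 was the lowest and wild type 2 the highest array, with the knockout arrays between them. Their log2 changes were 0.00 (SE 0.34, interval -0.75 to 0.76) and -0.02 (SE 0.35, interval -0.79 to 0.76). Fcer1g, the gamma chain shared by Fc receptors, measured 38.7 and 39.8 in wild type and 25.9 and 57.8 in the knockout. Its wild-type arrays were close together and its knockout arrays lay on either side of them (log2 0.01, SE 0.35, interval -0.79 to 0.80).

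**Figure D2:**
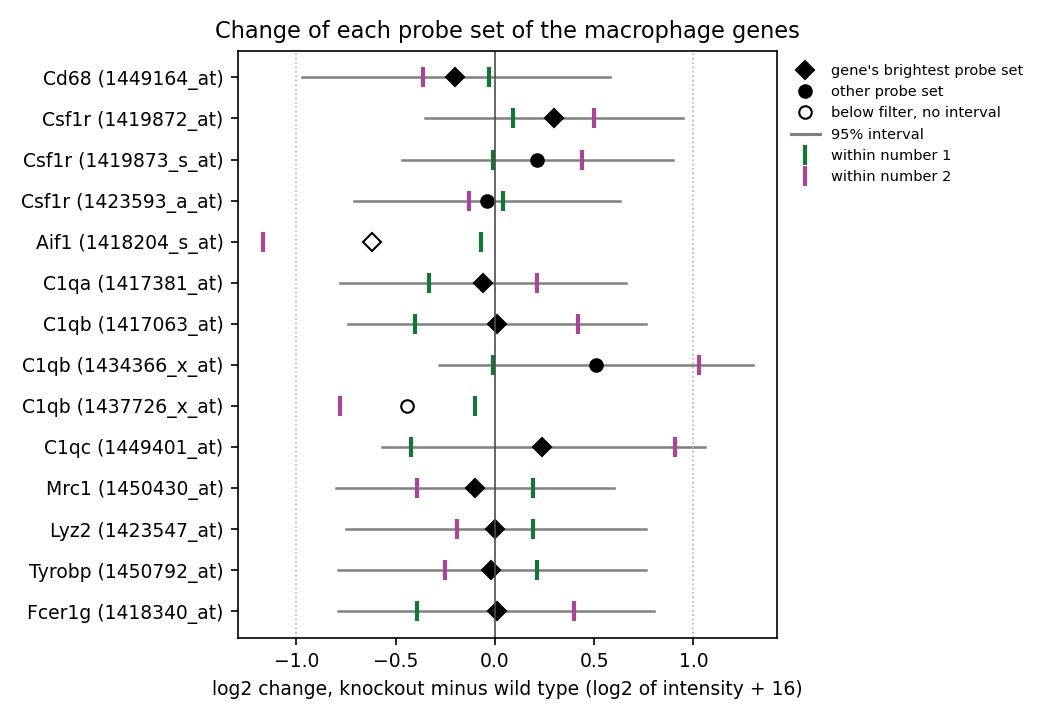
Log2 change (knockout minus wild type, log2 of intensity + 16) of all 14 probe sets, with 95% intervals from limma for the 12 tested, and ticks for the change within each array number; dotted lines mark 2-fold of intensity + 16. Every interval includes 0, and the ticks lie on opposite sides of 0 for all 3 C1q genes' brightest probe sets and for Mrc1, Lyz2, Tyrobp and Fcer1g.

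Single arrays of one genotype differed by more than the genotype means did, though means of 2 arrays scatter less than single arrays do. The median absolute difference over the 9 tested genes was 0.51 within wild type and 0.31 within the knockout, against 0.06 between the genotype means. For 9 of 9 genes the genotype difference was smaller than the larger of the differences within a genotype, which held for 84.1% of all tested genes. The direction was opposite within the 2 numbers for 7 of the 9 genes, against 46.3% of all genes, and Cd68 and Csf1r kept theirs.

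The genes did not vary as a block across the arrays. C1qa and C1qc were higher on wild type 1 than on wild type 2, whereas Mrc1, Lyz2 and Tyrobp were higher on wild type 2, by 0.51, 0.64 and 0.74 on the log2 scale. Between the knockout arrays, C1qb, C1qc and Fcer1g were higher on knockout 2 by 0.71, 0.55 and 0.82, while C1qa and Mrc1 differed by -0.07 each. Knockout 2 was the array with the highest value for Csf1r, C1qb, C1qc and Fcer1g, and the lowest for Cd68 and Aif1. Averaged over the tested members, the log2 level relative to each gene's own mean was -0.03 and 0.01 on wild type 1 and 2 and -0.12 and 0.15 on knockout 1 and 2. The genes with the smallest root mean square distance from this average pattern over the 4 arrays were Plekhh2 (0.0112), Saraf (0.0149), Mapk14 (0.0204), Pdzd8 (0.0217) and Parpbp (0.0221). With 4 arrays this is a description of a nearly flat profile.

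**Figure D3:**
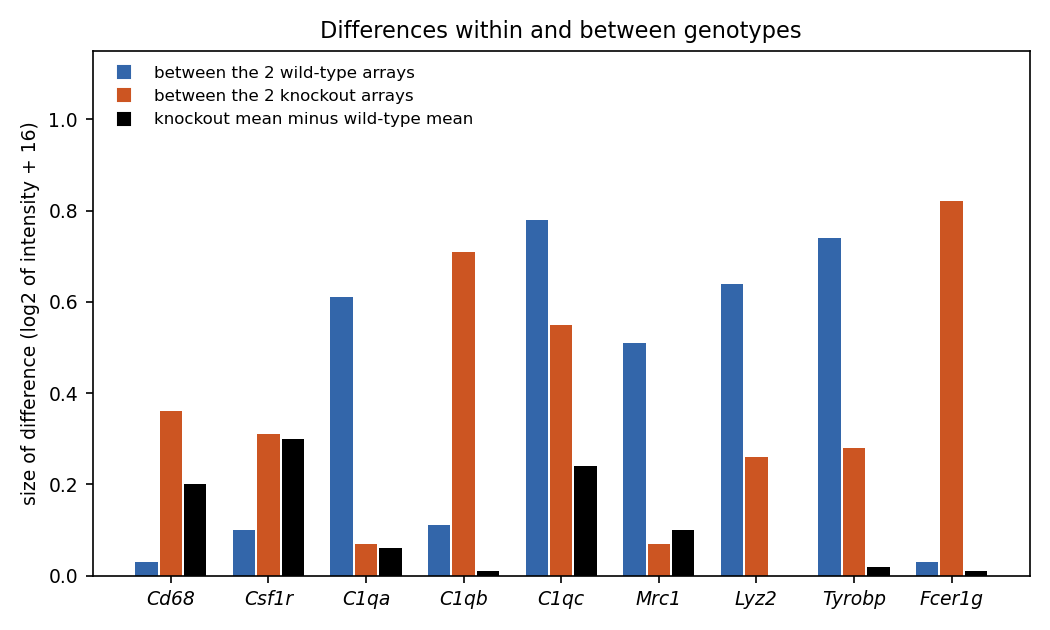
Size of log2 differences (log2 of intensity + 16, from 0) for the 9 tested genes, between the 2 wild-type arrays, between the 2 knockout arrays and between the genotype means. The black bar, for genotype, is below the taller of the other bars for every gene.

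A separate list of 20 other macrophage markers, which holds none of the members, had 17 tested genes. Of these, 0 passed in limma and 0 had an unadjusted p under 0.05. Their median log2 change was -0.16, with 2 genes higher and 4 lower without overlap, against 12.7% and 14.3% of all genes. Pf4, a chemokine made by platelets and by tissue macrophages, measured 304 and 371 in wild type and 286 and 304 in the knockout (log2 -0.18, interval -0.82 to 0.46). Stab1, a scavenger receptor of macrophages and some endothelium, measured 111 and 89.0 against 101 and 101 (log2 0.01). Ctss, the lysosomal protease cathepsin S, measured 47.8 and 59.1 in wild type and 76.9 and 114 in the knockout. Both knockout arrays were above both wild-type arrays, yet the change did not pass (log2 0.66, SE 0.32, interval -0.04 to 1.37, adjusted p = 1.00). Cd14, the lipopolysaccharide co-receptor, had the opposite arrangement, with 21.8 and 19.1 in wild type and 8.49 and 8.40 in the knockout (log2 -0.58, interval -1.33 to 0.18, adjusted p = 1.00).

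Genes that act with Csf1r had a median log2 change of 0.25 over 9 tested members of 12, with 0 passing in limma and 0 at an unadjusted p under 0.05. The ligand Csf1 measured 61.2 and 24.7 in wild type and 51.4 and 92.8 in the knockout, and the groups overlapped (log2 0.61, interval -0.27 to 1.49). The second ligand, Il34, was dim at 13.9 and 13.6 against 18.7 and 23.1, without overlap (log2 0.31, interval -0.44 to 1.05). The signalling genes Grb2, an adaptor, and Pik3cd, a catalytic subunit of phosphoinositide 3-kinase, had log2 changes of -0.14 and 0.25. Spi1 measured 19.3 and 13 in wild type and 21.4 and 3.68 in the knockout (log2 -0.24, interval -1.14 to 0.67).

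Of the partners of Tyrobp and Fcer1g, 5 of 12 genes were tested and 0 passed in limma, with 0 at an unadjusted p under 0.05 and a median log2 change of 0.10. Fcgr3, the low-affinity IgG receptor that needs Fcer1g at the surface, measured 35.7 and 48.1 in wild type and 25.3 and 75.3 in the knockout (log2 0.09, interval -0.81 to 0.99). Like Fcer1g, it was lowest on knockout 1 and highest on knockout 2. C1qb and the tissue macrophage gene F13a1 had this order too, so it was not particular to Fcgr3 and Fcer1g. Lcp2, the adaptor SLP-76, measured 90.1 and 184 against 115 and 168 (log2 0.10), and Plcg2, a phospholipase downstream of Syk, had 0.13. The kinase Syk and the receptor Trem2, which signals through Tyrobp, lay below the filter.

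Complement genes other than C1q had 4 tested members of 17, and 0 passed in limma, with 0 at an unadjusted p under 0.05. All were inhibitors of complement or receptors, and the median log2 change was -0.24. Cd59a, an inhibitor of the membrane attack complex, measured 51.6 and 78.0 in wild type and 45.1 and 47.5 in the knockout (log2 -0.36, interval -1.06 to 0.35), and Serping1, the C1 inhibitor, had -0.32. Cr1l, the rodent complement regulator Crry, measured 111 and 200 against 97.4 and 179 (log2 -0.16). The proteases of the C1 complex, C1ra and C1s1, lay below the filter, with C1ra at 13.7 and 15.9 in wild type and 1.13 and 7.37 in the knockout.

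The list for clearance of dying cells and lysosomes had 12 tested genes of 16, with 0 passing in limma, 0 at an unadjusted p under 0.05 and a median log2 change of 0.07. Lens cells also express lysosomal genes, so these levels are not specific to macrophages. Ctsd, the protease cathepsin D, measured 878 and 748 in wild type and 1015 and 943 in the knockout, without overlap (log2 0.27, interval -0.29 to 0.82). Lamp1, a lysosomal membrane protein, and Ctsl, cathepsin L, had 0.17 and 0.01. Among the scavenger receptor and tissue macrophage genes, F13a1, a transglutaminase subunit, measured 125 and 119 against 94.8 and 139 (log2 -0.07), and Lyve1, a hyaluronan receptor, measured 77.7 and 69.5 against 82.2 and 107 (log2 0.29). That list had 4 tested genes of 11, 0 passing in limma, 0 at an unadjusted p under 0.05 and a median of -0.03.

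Antigen presentation genes had a median log2 change of -0.23 over 4 tested members of 9, and 0 passed in limma, with 0 at an unadjusted p under 0.05. B2m, the light chain of class I molecules, measured 360 and 316 in wild type and 249 and 262 in the knockout, without overlap (log2 -0.38, interval -1.01 to 0.25). The class I heavy chains H2-K1 and H2-D1 had -0.45 and -0.09. H2-Ab1, a class II chain of antigen-presenting cells, lay below the filter and measured 31.5 and 21.9 in wild type and 3.29 and 4.12 in the knockout, so it was not tested.

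T, B and NK cell markers were dim, and neutrophil genes stood out on knockout 2. None of the 11 measured T, B and NK cell genes reached the filter, and their summed intensity was 31.1 and 43.8 in wild type and 74.1 and 80.6 in the knockout. Cd3d, a chain of the T cell receptor complex, measured between 0.709 and 1.08. The 10 neutrophil genes summed to 99.0 and 108 in wild type, 91.1 on knockout 1 and 543 on knockout 2. S100a8 and Ngp, proteins of neutrophil cytosol and granules, measured 134 and 163 on knockout 2 and at most 17.9 and 19.7 on the other arrays. Ltf, lactoferrin of neutrophil granules, measured 23 and 30.5 in wild type and 44.8 and 55.7 in the knockout, and Lcn2, another granule protein, 14.3 and 11.2 against 4.35 and 20.3, so neither stood far apart on knockout 2. Knockout 2 was the highest array for 9 of the 10 genes, the exception being Csf3r, the receptor for granulocyte colony-stimulating factor, at 4.67 there. That count includes genes below the filter, and the share over all genes was not counted. Of this list 3 genes were tested and 0 passed in limma, with 0 at an unadjusted p under 0.05 and a median log2 change of 0.87. Erythroid genes also summed highest on knockout 2, at 514 against 91.7 to 158 on the other arrays. Lyz2, Tyrobp and Fcer1g are also expressed in neutrophils, and the part of these cells in their knockout 2 values was not tested. Without knockout 2, the log2 changes were -0.13 for Lyz2, -0.16 for Tyrobp and -0.40 for Fcer1g. Of the members outside this group, C1qb went from 0.01 to -0.35, C1qc from 0.24 to -0.03 and Csf1r from 0.30 to 0.14. Cd68 went from -0.20 to -0.02, while C1qa went from -0.06 to -0.03 and Mrc1 from -0.10 to -0.07. Mast cells, which carry Fcer1g, had 8 measured markers with sums of 98.1 and 155 in wild type and 133 and 77.6 in the knockout. Kit, which other cells of the eye also express, made up 56.7, 37.0, 71.6 and 23.5 of these sums on wild type 1, wild type 2, knockout 1 and knockout 2.

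Set beside the other tissue around the lens, the macrophage genes had a median near 0 on arrays where the medians of fibroblast and muscle genes did not. The 9 fibroblast and pericyte genes had a median log2 change of -1.33, with 7 lower without overlap (14.3% of all genes), 6 at an unadjusted p under 0.05 (2.35%) and 0 passing in limma. Col3a1, a fibrillar collagen, measured 476 and 710 in wild type and 114 and 233 in the knockout. Other members were nearer 0, with Rgs5, a pericyte gene, at 0.02 and the growth factor receptors Pdgfra and Pdgfrb at -0.45 and -0.46. The 9 striated muscle genes had a median of -2.35 and were all lower without overlap, and Acta1, Actc1 and Myl1 passed. The 11 endothelial genes mark vessels, and whether these belonged to the capillary coat or to other tissue was not tested. Groups overlapped for 10 of the 11, and for 8467 of all 11595 genes tested. The endothelial genes had a median of 0.16, with 0 passing in limma and 0 at an unadjusted p under 0.05. Their summed intensity was 1090 and 774 in wild type and 830 and 1139 in the knockout. The 10 macrophage genes summed to 765 and 757 in wild type and 712 and 906 in the knockout. For them knockout 1 was lower and knockout 2 higher than both wild-type arrays, and in both lists the sum was highest on knockout 2. By gene, knockout 2 was the highest array for 4 of 10 macrophage and 5 of 11 endothelial genes. The share over all genes was not counted, so these counts set neither list apart from the rest. The separate list of other macrophage markers summed to 951 on knockout 2 and 964 on wild type 2. The 9 neural retina genes had a median of -0.35, with 0 passing in limma and 0 at an unadjusted p under 0.05, and they summed to 1336 on knockout 2 against 2171 to 2549 on the other arrays. How much vessel coat, connective tissue, retina and muscle each dissection kept was not tested, and the difference between the lists was described by these medians and not tested.

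**Figure D4:**
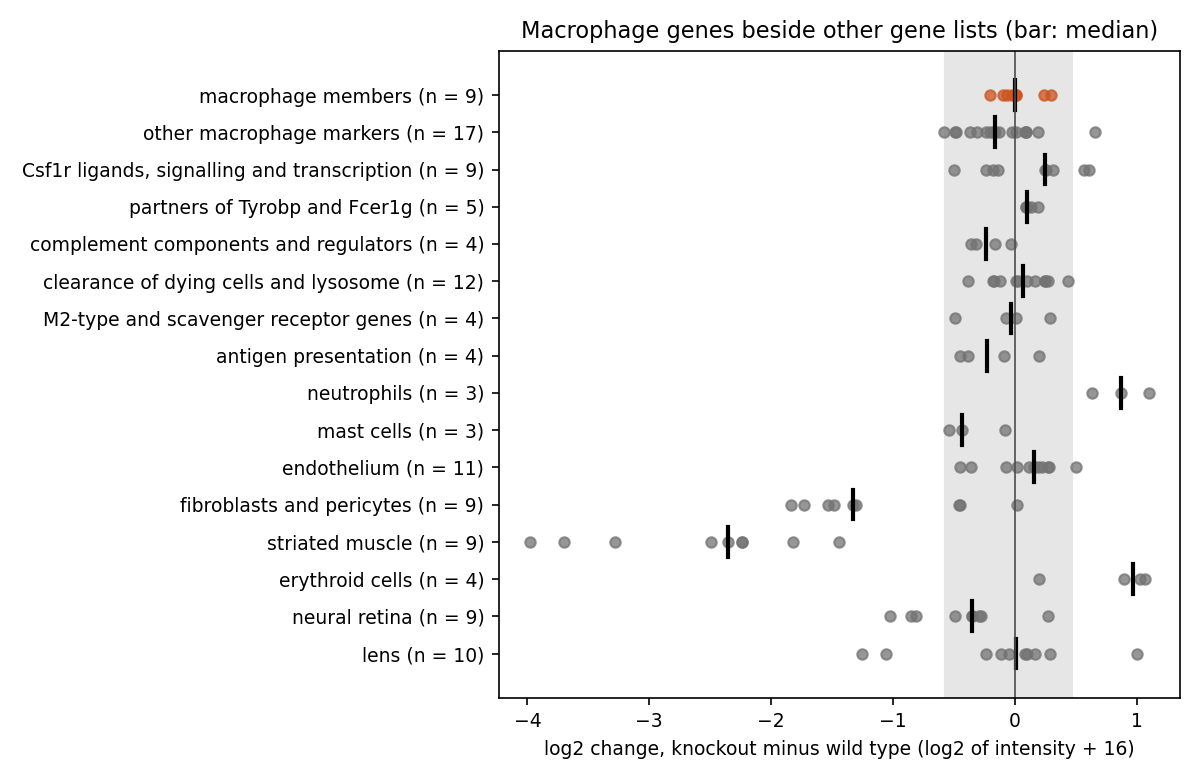
Log2 change (knockout minus wild type, log2 of intensity + 16) of each tested gene in the macrophage list (orange) and in the other lists (grey), with a bar at each median; the shaded band runs from the 5th to the 95th percentile of all tested genes, -0.57 to 0.47. The 9 macrophage genes lie between -0.20 and 0.30, inside the band, while most fibroblast genes and all muscle genes lie left of it.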

How the data were processed

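RNA of 4 newborn lens samples was hybridized to Affymetrix mouse expression arrays, 1 array per sample. The authors deposited linear intensity values, 1 per probe set and array; the labels do not say how probes were summarised. R 4.3.3 and limma 3.58.1 gave all arrays the same quantiles, after which the log2 of the intensity plus 16 was taken and 64 control probe sets were dropped. Of 45037 others, 34945 had 1 gene symbol, 932 several and 9160 none, with symbols updated through gene IDs. Testing was limited to those at or above the median of the mean log2 values, 4.86. The fit compared genotypes with limma's variance trend and no block, and it was tested on simulated data. An exact permutation test of 2 against 2 arrays cannot go below p = 0.333 and was not used. The members, gene lists and tests were chosen with earlier results of these data known. Several genes stand in 2 lists. Named genes were all members, the 3 brightest genes and any passing gene of each other list, checks of the labels and the 5 genes of nearest pattern. Not all genes under this rule are described, and Cd14, Il34, Spi1, Syk, Trem2, C1ra, C1s1, H2-Ab1, Pdgfrb, Foxe3, Bfsp1, Bfsp2, Dnase2b, Lcn2, Csf3r and Cd3d were named after their values were seen. Alternatives covered scaling, offset, filter, variance model, array number as a block, the mean of probe sets and leaving out each array. Promoter windows came from RefSeq (GRCm38.p6), for 7 of the 10 genes and none for C1qa, Tyrobp and Csf1r.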

Additional observations from a re-analysis of the deposited data

How the results depend on the processing

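None of the tested macrophage genes passed in limma, or had an unadjusted p under 0.05, under any of the 16 alternatives, and the lowest adjusted p of a member was 0.696, without knockout 1. In the 4 alternatives that leave out an array, that genotype has 1 array left, which is assumed to vary like the other group, so they add little to this count. Their median log2 change moved with the scaling, to -0.41 with values as deposited and -0.23 with median centring. These settings moved the median of all genes to -0.46 and -0.28, and the macrophage median relative to it was 0.05 in both. The macrophage median itself ran from -0.07 to 0.13 when an array was left out. Values as deposited turned the sign for Csf1r (-0.31), C1qb (-0.52), C1qc (-0.29), Lyz2 (-0.37) and Fcer1g (-0.46), as did median centring (-0.14, -0.34, -0.12, -0.20 and -0.29). Fcer1g was -0.01 with the trimmed mean and -0.02 with offset 1, and Lyz2 was -0.01 with offset 64. The remaining 93 of 106 member values kept their sign. Many of these were fixed in advance, so the count does not measure stability. Changes of filter, variance model or block cannot move a gene's log2 change here. Nor can averaging probe sets for genes with 1 probe set. Leaving out an array gave ranges that cross 0 for C1qa (-0.37 to 0.25), C1qb (-0.35 to 0.37), C1qc (-0.15 to 0.64), Mrc1 (-0.36 to 0.15), Lyz2 (-0.32 to 0.32), Tyrobp (-0.39 to 0.35) and Fcer1g (-0.40 to 0.42). Cd68 stayed between -0.37 and -0.02 and Csf1r between 0.14 and 0.45. Csf1r turned its sign with values as deposited and with median centring, and Cd68 came close to 0. No direction is therefore given for any member.

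Over all genes, 4 passed in limma. It fell to 0 for unscaled deposited values (19 at an unadjusted p under 0.05), for all genes without the filter (550) and when each gene's probe sets were averaged (271), and it was 12 with median centring and 7 with the trimmed mean. Without an array it ran from 4 to 280, with 280 without knockout 1, 60 without knockout 2 and 8 without wild type 2. The labels do not say that equal numbers pair the samples, though arrays of equal number deviated together (r = 0.43 across genes, which are not independent). With the replicate block, 200 genes passed, 0 of them members, and the lowest member adjusted p was 0.767. The cause of these differences was not tested. Signal over background limits Cd68 and Aif1, and 2 arrays per group limit all values.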
